A study of Mus musculus with 62 samples.

Results

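Voltage-gated sodium channels, voltage-gated calcium channels, HCN channels, the leak channel NALCN and the TRP channels were compared between 3 brain regions of the mouse. Members were chosen by name, as protein-coding genes whose symbol begins with Cacna, Cacnb or Cacng, or fits the patterns of the Scn alpha and beta subunits, the Hcn genes, the Trpa, Trpc, Trpm, Trpv and Trpp genes, or is Nalcn. The annotation holds 69 such genes, of which 48 had a row among the 12483 genes of the 2 deposited count tables and 44 had a row in both tables. Scn4b had a row in the table of the nucleus accumbens (NAc) and prefrontal cortex (PFC) only, and Hcn4 and Scn7a were among those in the table of the suprachiasmatic nucleus (SCN) only. The other 21 genes had no row and were not analysed here. They are Cacna1f, Cacna1s, Cacna2d4, Cacng1, Cacng6, Scn4a, Scn10a, Scn11a, Trpa1, Trpc2, Trpc5os, Trpm1, Trpm4, Trpm5, Trpm6, Trpm8, Trpv1, Trpv3, Trpv4, Trpv5 and Trpv6. Trpc4ap fits the name pattern and was counted, but it encodes a protein that associates with TRPC4 and not a channel subunit.

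The libraries came from 26 C57BL/6J mice, with 26 libraries from the NAc, 17 from the PFC and 19 from the SCN, each a punch from 1 animal. Tissue was collected at ZT6, in the middle of the light phase, some weeks after circadian rhythm disruption (CRD), a repeated shift of the light cycle in adolescence, or after a control schedule. Region and mouse number are labelled, but neither the exposure nor the sex of a mouse is, so each region can hold exposed and control mice, and no effect of CRD or of sex was compared.

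Sodium channel alpha subunits (Scn genes ending in a) form the pore that carries the rising phase of the action potential, and the beta subunits are adhesion-type partners that alter gating and placement of that pore. Calcium channel alpha1 subunits (Cacna1 genes) form pores of the high-voltage L, P/Q, N and R types and of the low-voltage T type, while alpha2delta (Cacna2d), beta (Cacnb) and gamma (Cacng) subunits set how much channel reaches the membrane; several gamma proteins, the TARPs, instead escort AMPA-type glutamate receptors. HCN channels open on hyperpolarization and carry the pacemaker current, NALCN carries a sodium leak that holds neurons near threshold, and TRPC, TRPM and TRPV channels are cation channels opened by receptor signalling, lipids, ions or heat. In SCN neurons such currents shape the daily rhythm of firing, and in NAc projection neurons and PFC pyramidal neurons they set excitability.

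The windows around the annotated starts of 5 genes are shown because these genes carried the largest differences between the NAc and PFC, namely Scn4b, Scn9a, Trpc7 and Trpc6, or because the gene, Scn2b, lies beside one of them. Each window runs from 250 bases before to 50 bases after the start, is given 5′ to 3′ on the strand of the gene, comes from RefSeq on GRCm38.p6, and has every CG dinucleotide in capitals. The window of Scn4b is chr9:45138374-45138673 (plus strand), that of Scn2b chr9:45117626-45117925 (plus), that of Scn9a chr2:66634913-66635212 (minus), that of Trpc7 chr13:56895740-56896039 (minus) and that of Trpc6 chr9:8543892-8544191 (plus).
Scn4b: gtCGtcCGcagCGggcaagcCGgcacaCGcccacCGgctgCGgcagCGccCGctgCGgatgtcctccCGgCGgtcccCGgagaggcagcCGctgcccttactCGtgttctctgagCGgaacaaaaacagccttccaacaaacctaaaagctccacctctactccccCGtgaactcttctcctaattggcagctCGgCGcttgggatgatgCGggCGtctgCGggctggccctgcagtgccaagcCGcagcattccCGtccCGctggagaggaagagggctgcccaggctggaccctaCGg
Scn2b: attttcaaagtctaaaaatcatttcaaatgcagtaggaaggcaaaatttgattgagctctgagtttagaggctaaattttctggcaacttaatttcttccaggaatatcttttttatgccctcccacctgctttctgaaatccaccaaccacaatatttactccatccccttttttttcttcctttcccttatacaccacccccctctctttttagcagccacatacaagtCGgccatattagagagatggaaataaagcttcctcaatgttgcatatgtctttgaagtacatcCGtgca
Scn9a: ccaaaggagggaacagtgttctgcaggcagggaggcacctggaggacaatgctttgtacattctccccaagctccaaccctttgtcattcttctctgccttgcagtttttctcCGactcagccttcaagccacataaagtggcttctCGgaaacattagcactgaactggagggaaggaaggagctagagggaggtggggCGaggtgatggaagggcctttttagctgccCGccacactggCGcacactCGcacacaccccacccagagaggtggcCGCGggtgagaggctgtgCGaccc
Trpc7: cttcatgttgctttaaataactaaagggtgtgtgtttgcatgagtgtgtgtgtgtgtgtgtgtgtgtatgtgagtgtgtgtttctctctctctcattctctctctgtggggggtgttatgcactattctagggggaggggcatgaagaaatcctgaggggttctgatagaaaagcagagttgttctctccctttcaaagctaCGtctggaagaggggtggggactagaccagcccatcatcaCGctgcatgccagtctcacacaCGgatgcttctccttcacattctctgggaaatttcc
Trpc6: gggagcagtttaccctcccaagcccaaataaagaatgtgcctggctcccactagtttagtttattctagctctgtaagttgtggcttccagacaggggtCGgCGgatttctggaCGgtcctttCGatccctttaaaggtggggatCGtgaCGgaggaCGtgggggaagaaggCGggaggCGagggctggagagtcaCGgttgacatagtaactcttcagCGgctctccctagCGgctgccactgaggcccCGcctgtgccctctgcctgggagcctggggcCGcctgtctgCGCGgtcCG
The Scn4b window held 26 CG dinucleotides, more than 83.1% of the 32851 windows of all genes, and the window of its neighbor Scn2b held 2, more than 14.1% of them. Trpc6, the member farthest below the PFC in the NAc, had 17, and Trpc7, among those farthest above, had 3. Scn4b and Trpc7, both higher in the NAc, had 26 and 3, so the windows of genes higher in the NAc were not alike in this respect. Scn9a had 9. Of the 48 members with a row, 37 had an entry, with 51 windows and a median of 15 CG dinucleotides beside 7 over all windows. The palindrome CACGTG, an E-box that the clock proteins CLOCK and BMAL1 can bind, was found in 1 of the 51 windows (1.96%), that of Trpm7, beside 7.15% of all windows. The palindrome TGACGTCA, the cAMP response element, was found in 0 of the 51, beside 1.79% of all windows. Members with no window at hand included Cacna1a, Cacna1g, Cacna1h, Cacng4, Hcn3, Scn3a and Scn3b.

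NAc libraries held 28879724 to 60009482 counts, PFC libraries 31216225 to 50333579 and SCN libraries 16496666 to 35389742. Mitochondrial rRNA made up medians of 49.4%, 46.6% and 38.2% of them. Nuclear protein-coding genes received 8965718 to 27046661, 11583220 to 20427534 and 5868489 to 23495106 counts. The members together received 53893 to 178330, 69627 to 126521 and 23504 to 118070 counts. Levels are given as RPKM, which are counts per kilobase of exon relative to the scaled count of the nuclear protein-coding genes in both tables, and markers as CPM, the same without the length, with all 62 libraries scaled together. The regions held their own markers. In the NAc, 8 genes of striatal projection neurons summed to 3978 to 9642 CPM, beside 175 to 392 CPM in the PFC. In the PFC, 7 genes of cortical glutamatergic neurons summed to 2098 to 2494 CPM, beside 31.1 to 1179 CPM in the NAc. All 9 listed genes of SCN neurons had rows in the SCN and summed to 203 to 1048 CPM (median 707), so the punches differed in these genes. Six6 was lowest in SCN J1199 (7.85 CPM, median 51.9) and Prok2 in SCN J1018 (2.46 CPM, median 38.7). The oligodendrocyte list had medians of 2321, 624 and 2506 CPM in the NAc, PFC and SCN, and the astrocyte list 1879, 2136 and 3275 CPM. SCN libraries of mice J1199 and J1140 stood apart, with 1899 and 853 CPM of the striatal genes beside at most 357 CPM in the other 17, and SCN results are given with and without them where this matters. Among the 47 members in the SCN table, SCN J1199 was the highest library for 6, while SCN J1157 and SCN J1159, which had the most counts, were the highest for 13 and 12. PFC J1160 was the lowest PFC library for 23 of 45 members.

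Between the NAc and PFC, most members differed, in equal numbers in each direction. Of 45 members tested, 16 were higher in the NAc, 16 were lower and 13 did not pass the test, which was edgeR's quasi-likelihood test over all 11569 genes with calls at an adjusted p under 0.05 and at least a 1.2-fold difference. The members called higher were 35.6%, beside 23.7% of all genes, and those called lower were 35.6%, beside 21.7%. The levels of the 2 regions did not overlap for 14 members (31.1%), beside 9.59% of all genes. The median log2 fold change was 0.10 beside 0.02 over all genes, and the median size of the change, without its sign, was 0.49 beside 0.24. In bulk tissue, fewer cells of a type and less RNA per cell cannot be told apart. With the mouse as a block (17 mice with both regions), 17 members were higher and 18 lower. Cacng2 (log2 fold change -0.57), Cacng8 (-0.34) and Trpc1 (0.33) were gained. The same mice without the block also gave 17 and 18, with the same genes gained (-0.53, -0.34 and 0.36). The gains thus went with the set of mice and did not depend on the block.

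**Figure D1:**
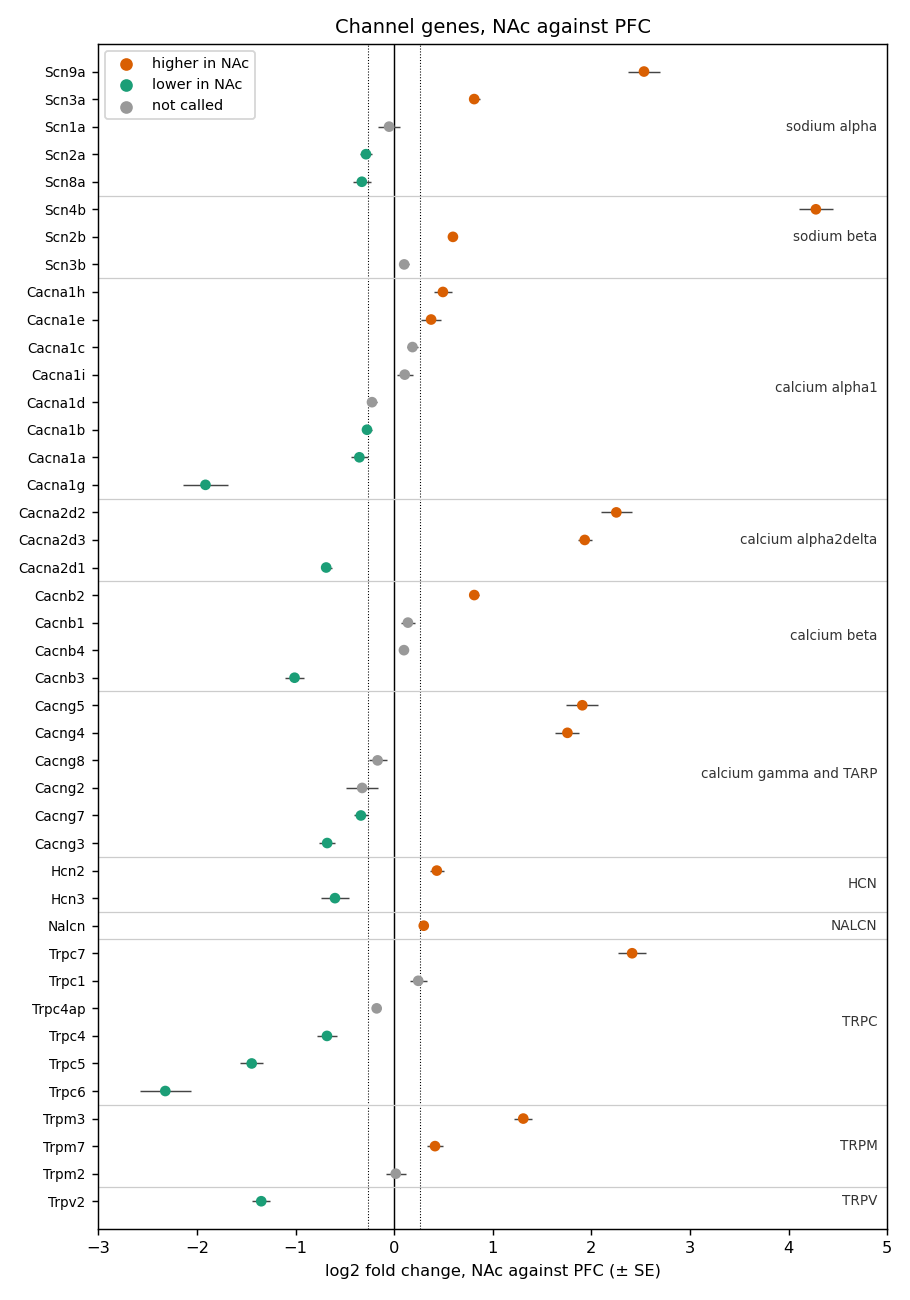
Log2 fold change of channel genes between the NAc (26 libraries) and the PFC (17 libraries), grouped by family, with points for the edgeR estimate and lines for ± 1 SE. Dotted lines mark the 1.2-fold threshold; 16 genes lie above it and were called higher in the NAc, and Scn4b, at 4.28, lies farthest from 0.

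In the SCN, more members were lower than higher against each of the other regions. Against the NAc, 25 of 44 members (56.8%) were lower and 11 (25%) higher, beside 31.0% and 33.1% of the 11133 genes with a row in both tables; ranges did not overlap for 11 members (25%), beside 13.0%. Against the PFC, 24 members (54.5%) were lower and 11 (25%) higher, beside 31.0% and 33.7% of all genes; ranges did not overlap for 15 (34.1%), beside 20.7%. The median log2 fold changes of the members were -0.56 and -0.38, beside 0.02 and 0.03 over all genes. Cacna2d2, Cacng5, Scn9a, Trpm3, Hcn3, Trpc5 and Trpv2 were called above both other regions, 7 of 44 beside 24.2% of all genes. The members called below both numbered 21, beside 22.3% of all genes. In the main fits, Cacna1d, Cacng2 and Trpm2 were called in none of the 3 comparisons. Without SCN J1157 and SCN J1159, Cacng2 was called lower in the SCN than the PFC (-0.53). Trpm2 was then called lower in the SCN than in the NAc (-0.26) and PFC (-0.27). The comparisons share libraries and are not independent of each other. SCN libraries were counted in a table of their own, so that the region and any difference in preparation between the tables cannot be told apart; the summed astrocyte markers, higher in the SCN than in either other region, also moved with these results, as did 9 ependymal genes that had rows in the SCN table alone (summed median 156 CPM), and their part was not tested.

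**Figure D2:**
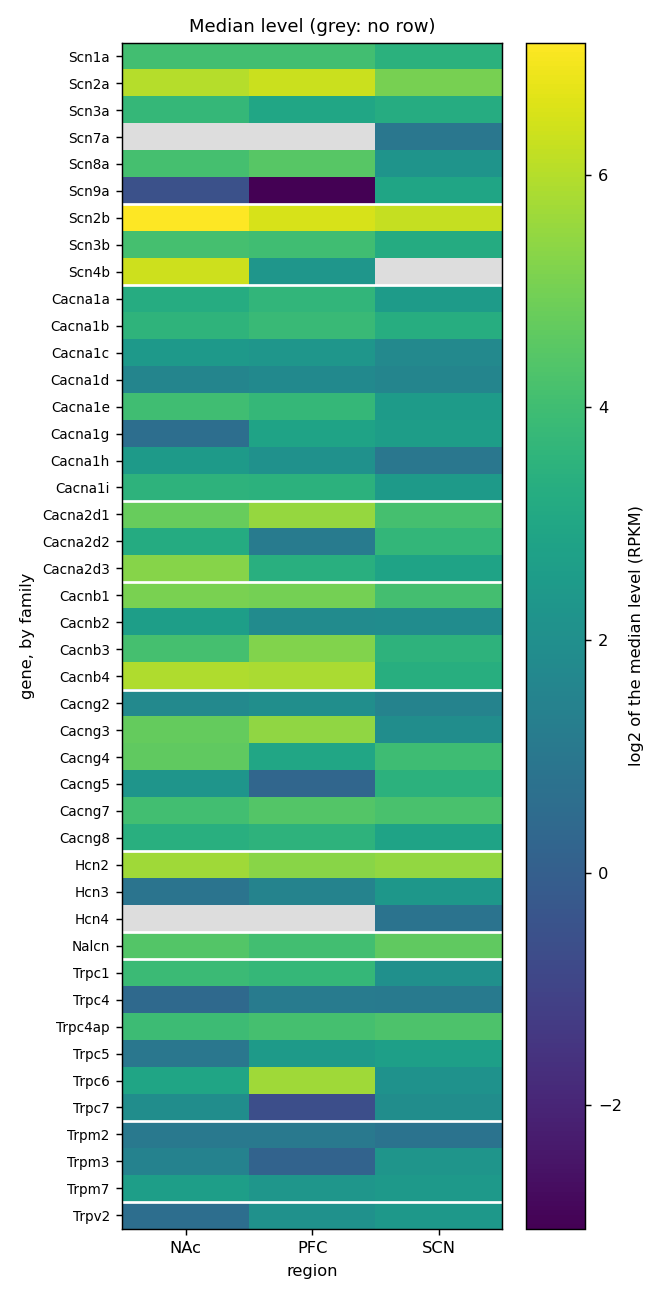
Median level of channel genes in each region, as log2 RPKM on a color scale, with genes ordered by family and grey where a gene had no row. Scn2b, Scn4b and Scn2a are bright in the NAc, Trpc6 is bright in the PFC alone, and Scn9a is brighter in the SCN than in the NAc and darkest in the PFC.

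Among sodium channel alpha subunits, Scn2a (Nav1.2) was the most abundant in each region, and Scn9a (Nav1.7), best known from sensory neurons, was the member with the widest contrast. Scn9a reached 5.04 to 19.9 RPKM (median 7.58) in the SCN, 0.28 to 1.13 RPKM (median 0.70) in the NAc and 0.06 to 0.30 RPKM (median 0.12) in the PFC. All SCN libraries were above all others, whereas the highest PFC library, at 0.30 RPKM, was above the lowest NAc library. Scn9a was 11.3-fold higher in the SCN than in the NAc (log2 fold change 3.50 ± 0.13 (SE), edgeR adjusted p = 1.83e-33, higher in 19 of 19 mice), and its log2 fold change against the PFC was 6.02 ± 0.19 (edgeR adjusted p = 2.33e-38, 12 of 12 mice). It was also higher in the NAc than the PFC (2.53 ± 0.16, edgeR adjusted p = 7.37e-19, 17 of 17 mice), although PFC libraries held a median of 21 Scn9a counts and as few as 11. Without SCN J1157, which held the highest level, and SCN J1159, the log2 fold change of Scn9a against the NAc was 3.37. Scn9a (ENSMUSG00000075316) spans chr2:66480080-66634962 on GRCm38 and is one of 5 sodium channel alpha genes that lie within 1328 kb of that chromosome.

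Of the other alpha subunits of that cluster, Scn3a, Scn2a and Scn1a did not have their highest level in the SCN. Scn3a, known for its expression in the immature brain, was higher in the NAc than the PFC, with 10.6 to 19.4 RPKM (median 13.3) beside 5.88 to 9.26 RPKM (median 7.81) and no overlap (log2 fold change 0.81 ± 0.06, edgeR adjusted p = 2.06e-17, 17 of 17 mice). Its SCN level, median 9.62 RPKM, lay between them and was called lower than the NAc (-0.47) and higher than the PFC (0.34). Scn2a had medians of 63.8 RPKM in the NAc, 79.3 RPKM in the PFC and 32.9 RPKM in the SCN; the SCN libraries, at 20.7 to 44.6 RPKM, all lay below the PFC libraries (-1.25 ± 0.08, edgeR adjusted p = 1.71e-22), and the NAc and PFC overlapped (-0.29 ± 0.06). Scn1a, the subunit typical of fast-spiking interneurons, had a log2 fold change between the NAc and PFC of -0.05 ± 0.11 and was not called; it was lower in the SCN than in both (-0.57 and -0.63). Scn7a, an atypical subunit known from glia and from neurons that sense sodium, had a row in the SCN table alone, with 0.99 to 3.03 RPKM (median 2.0).

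Scn8a (Nav1.6), the main pore of the axon initial segment and node of Ranvier in adult neurons, was the alpha subunit farthest below both other regions in the SCN. Levels were 3.08 to 9.0 RPKM (median 4.65) in the SCN, 10.2 to 25.5 RPKM (median 17.2) in the NAc and 13.9 to 27.9 RPKM (median 22.3) in the PFC. No SCN library reached the lowest NAc or PFC library, and the log2 fold changes were -1.68 ± 0.12 (edgeR adjusted p = 4.39e-20, lower in 19 of 19 mice) and -2.01 ± 0.13 (edgeR adjusted p = 3.11e-22, 12 of 12 mice). Scn8a was also called lower in the NAc than the PFC (-0.33 ± 0.09), but not among mice of the upper number range (-0.19).

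The alpha subunits present in all regions summed to medians of 113 RPKM in the NAc, 127 RPKM in the PFC and 62.1 RPKM in the SCN. Within these sums, Scn8a took 15.3% ± 2.2 (SD, n = 26) in the NAc, 17.2% ± 1.7 (n = 17) in the PFC and 7.86% ± 1.68 (n = 19) in the SCN. Scn9a took 12.4% ± 4.5 in the SCN and 0.66% ± 0.21 in the NAc, and its lowest share in an SCN library, 6.05%, was above its highest share in a NAc library, 1.32%.

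Scn4b, a beta subunit known for the resurgent sodium current and enriched in striatal projection neurons, showed the widest difference between the NAc and PFC of all members. It reached 56.8 to 139 RPKM (median 83.1) in the NAc and 1.67 to 6.73 RPKM (median 4.9) in the PFC, without overlap. The difference was 19.4-fold (log2 fold change 4.28 ± 0.17, edgeR adjusted p = 1.95e-26) and was seen in 17 of 17 mice. Scn4b had no row in the SCN table, and no value is given for that region. The gene (ENSMUSG00000046480) lies on the same strand of chromosome 9 as Scn2b, 8324 bases away.

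Scn2b, the most abundant beta subunit in every region, followed the same direction with a smaller difference. Its levels were 117 to 163 RPKM (median 140.4) in the NAc, 84.7 to 102 RPKM (median 91.8) in the PFC and 58.6 to 97.5 RPKM (median 75.5) in the SCN. All NAc libraries lay above all PFC libraries (0.60 ± 0.04, edgeR adjusted p = 8.42e-18, 17 of 17 mice) and above all SCN libraries (SCN against NAc -0.86 ± 0.05, edgeR adjusted p = 1.29e-24). Between the SCN and PFC the ranges overlapped, and the call of a lower SCN level (-0.26 ± 0.05) lay at the 1.2-fold threshold. It was lost among mice of the upper number range (-0.24), with nuclear protein-coding rows alone (-0.26) and without PFC J1160 (-0.25). Scn3b was not called between the NAc and PFC (0.10 ± 0.05) and was lower in the SCN than in both (-0.86 and -0.76).

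**Figure D3:**
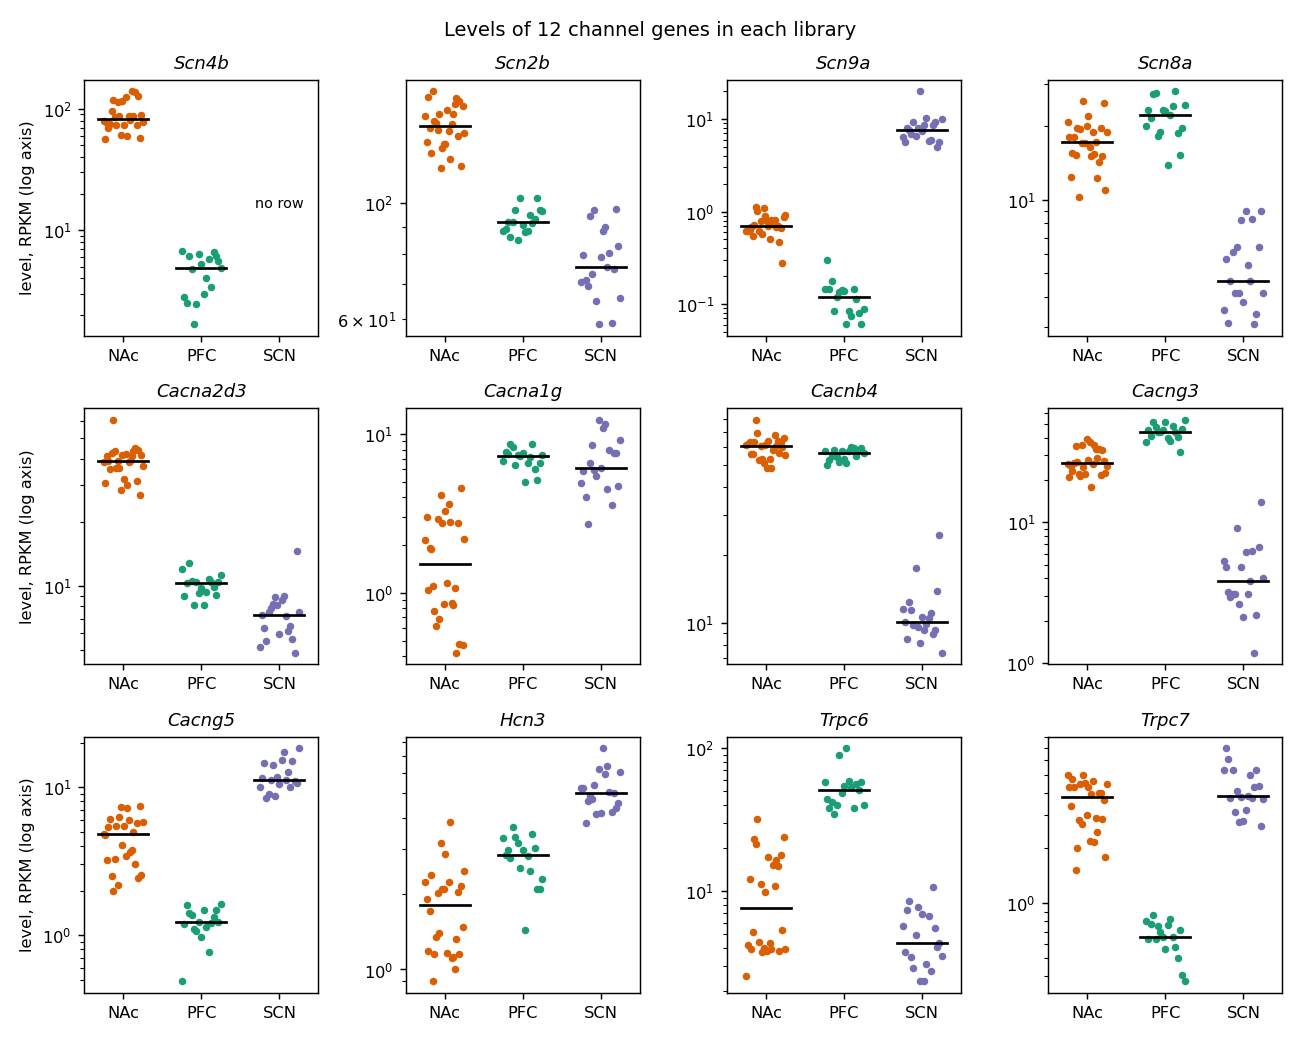
Levels of 12 channel genes in every library of the NAc (26), PFC (17) and SCN (19), in RPKM on a log axis that differs between panels, with a point per library and a bar at the median. Scn4b and Cacna2d3 are high in the NAc, Trpc6 in the PFC, and Scn9a, Cacng5 and Hcn3 in the SCN; the NAc libraries of Trpc6 and Cacna1g are spread more widely than those of the other genes shown.

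Calcium channel alpha1 subunits differed less between the NAc and PFC, except for the T-type subunit Cacna1g. Cacna1g reached 5.02 to 8.64 RPKM (median 7.28) in the PFC, 0.42 to 4.61 RPKM (median 1.52) in the NAc and 2.73 to 12.3 RPKM (median 6.15) in the SCN. No NAc library reached the lowest PFC library, and the NAc level was 3.77-fold lower (log2 fold change -1.91 ± 0.23, edgeR adjusted p = 6.09e-10, lower in 17 of 17 mice). With the mouse as a block, in the 17 mice with both regions, the log2 fold change was -2.66. That fit leaves out the NAc libraries of mice without a PFC library, so the shift is not that of the block alone. Those mice were J980, J1011, J1016, J1017, J1020, J1140, J1158, J1162 and J1199. All but J1017 lay above a gap in the NAc levels of Cacna1g, between 1.15 and 1.90 RPKM. The main log2 fold change includes these libraries and spans that gap. The SCN level was higher than that of the NAc (1.87 ± 0.21, edgeR adjusted p = 5.35e-12, 19 of 19 mice) with overlapping ranges, and no difference from the PFC was detected (-0.05 ± 0.23). Slc17a7, the vesicular glutamate transporter of cortical projection neurons, was at its highest NAc level, 898 CPM, in the library highest for Cacna1g, NAc J1199. Without the 9 NAc libraries highest in Slc17a7, at 279.6 to 898 CPM beside at most 239.6 CPM in the other 17, the log2 fold change of Cacna1g was -2.57. Cacna1g (ENSMUSG00000020866) lies on chr11:94408391-94474198.

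The other T-type subunits did not follow Cacna1g. Cacna1h was higher in the NAc than the PFC (0.49 ± 0.09, edgeR adjusted p = 3.31e-06, 13 of 17 mice), with 3.94 to 8.73 RPKM beside 2.28 to 5.64 RPKM, and Cacna1i was not called (0.11 ± 0.08), although it was called higher among mice of the upper number range (0.30) and had -0.15 in the lower. Both were lower in the SCN than in the NAc (-1.29 ± 0.14 and -0.99 ± 0.10, each in 19 of 19 mice) and than in the PFC (-0.79 ± 0.15 and -0.89 ± 0.11).

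Of the high-voltage alpha1 subunits, the R-type subunit Cacna1e was the most abundant alpha1 in the NAc, at 11 to 25.1 RPKM (median 16.2). Per kilobase, the N-type subunit Cacna1b was the most abundant in the PFC (median 14.5 RPKM) and SCN (median 9.86 RPKM). That rank rests on exon lengths of 9942 bases for Cacna1b and 25228 for Cacna1e. In counts, Cacna1e was above Cacna1b, with medians of 5539 and 2530 in the PFC and 1383 and 902 in the SCN. Cacna1e was called higher in the NAc than the PFC (0.37 ± 0.10, edgeR adjusted p = 0.00089, 14 of 17 mice), although not among mice of the lower number range (0.25), and was lower in the SCN than in both (-1.33 and -0.96). The P/Q-type subunit Cacna1a (-0.35 ± 0.09) and Cacna1b (-0.28 ± 0.05) were called lower in the NAc than the PFC, each in 14 of 17 mice and neither among mice of the upper number range. The L-type subunits Cacna1c (0.19 ± 0.06) and Cacna1d (-0.22 ± 0.05) did not reach the 1.2-fold threshold there; Cacna1c was lower in the SCN than in both (-0.69 and -0.51), and Cacna1d had medians of 3.01, 3.44 and 2.96 RPKM in the NAc, PFC and SCN. Cacna1c overlaps the annotated gene Dcp1b and Cacna1d overlaps Dcp1a, and in union mode a read that falls on both genes of a pair is assigned to neither, unless strand tells them apart.

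The alpha2delta subunits, of which Cacna2d1 and Cacna2d2 bind gabapentin, differed between the NAc and PFC in opposite directions. Cacna2d3 reached 26.9 to 61.0 RPKM (median 38.9) in the NAc, 8.13 to 12.9 RPKM (median 10.3) in the PFC and 4.83 to 14.7 RPKM (median 7.28) in the SCN. All NAc libraries were above all others (NAc against PFC 1.93 ± 0.07, edgeR adjusted p = 3.59e-27, 17 of 17 mice; SCN against NAc -2.38 ± 0.09, edgeR adjusted p = 6.7e-34, 19 of 19 mice). The highest SCN library for Cacna2d3 was J1199, and the next was at 8.95 RPKM. Cacna2d2 was also higher in the NAc, at 3.90 to 18.7 RPKM (median 9.34), than in the PFC, at 1.10 to 2.66 RPKM (median 2.29), without overlap (2.25 ± 0.15, edgeR adjusted p = 1.85e-17), and had its highest median, 12.9 RPKM, in the SCN (against the PFC 2.64 ± 0.16, edgeR adjusted p = 6.02e-23). The SCN and NAc overlapped in Cacna2d2 (0.39 ± 0.14, edgeR adjusted p = 0.00824, 13 of 19 mice), and this call was lost without SCN J1157 and SCN J1159 (0.26) and among mice of the lower number range (0.28).

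Cacna2d1 was lower in the NAc than the PFC, at 21.8 to 40.2 RPKM (median 27.1) beside 38.0 to 50.1 RPKM (median 46.5), in 17 of 17 mice (-0.69 ± 0.06, edgeR adjusted p = 1.07e-14). Its SCN levels, 12.9 to 27.0 RPKM, all lay below the PFC (-1.41 ± 0.08). The subunit with the largest share of the summed alpha2delta level differed between regions. Cacna2d1 took 79.1% ± 1.8 (SD, n = 17) in the PFC, 37.0% ± 5.1 (n = 26) in the NAc and 46.2% ± 7.3 (n = 19) in the SCN, and its highest NAc share, 52.5%, was below its lowest PFC share, 75.8%. The median share of Cacna2d3 was 50.2% in the NAc, beside 17% in the PFC and 20.3% in the SCN.

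Calcium channel beta subunits, which bind the alpha1 pore inside the cell and aid its transport, were mostly lower in the SCN. Cacnb4 reached 48.8 to 79.5 RPKM (median 61.1) in the NAc, 50.1 to 60.3 RPKM (median 56.5) in the PFC and 7.38 to 24.4 RPKM (median 10.1) in the SCN. No SCN library came near the others (against the NAc -2.41 ± 0.08, edgeR adjusted p = 1.05e-35, lower in 19 of 19 mice; against the PFC -2.32 ± 0.09, edgeR adjusted p = 5.73e-34, 12 of 12 mice). Its highest SCN libraries were J1199 and J1140, and without both the highest was 13.8 RPKM. Between the NAc and PFC, Cacnb4 differed by less than the 1.2-fold threshold (0.10 ± 0.04).

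Cacnb3 and Cacnb2 differed between the NAc and PFC in opposite directions. Cacnb3 had 9.05 to 27.6 RPKM (median 17.4) in the NAc and 25.6 to 43.9 RPKM (median 37.0) in the PFC (-1.01 ± 0.10, edgeR adjusted p = 8.77e-13, lower in 17 of 17 mice). Cacnb2 had 5.51 to 8.39 RPKM (median 6.36) in the NAc and 2.87 to 4.28 RPKM (median 3.67) in the PFC, with no overlap (0.81 ± 0.05, edgeR adjusted p = 1.9e-19). Cacnb1 was not called between them (0.14 ± 0.07), with -0.10 in the lower number range and a call in the upper (0.32). It took the largest share of the summed beta level in the SCN, 39.2% ± 4.4 (SD, n = 19), where Cacnb4 took 25.1% ± 5.6, beside 50.9% ± 5.7 (n = 26) for Cacnb4 in the NAc and 44.5% ± 3.2 (n = 17) in the PFC. The lowest NAc share of Cacnb4, 41.6%, was above its highest SCN share, 37.9%. The summed beta level had medians of 116, 126 and 43.6 RPKM in the NAc, PFC and SCN.

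**Figure D4:**
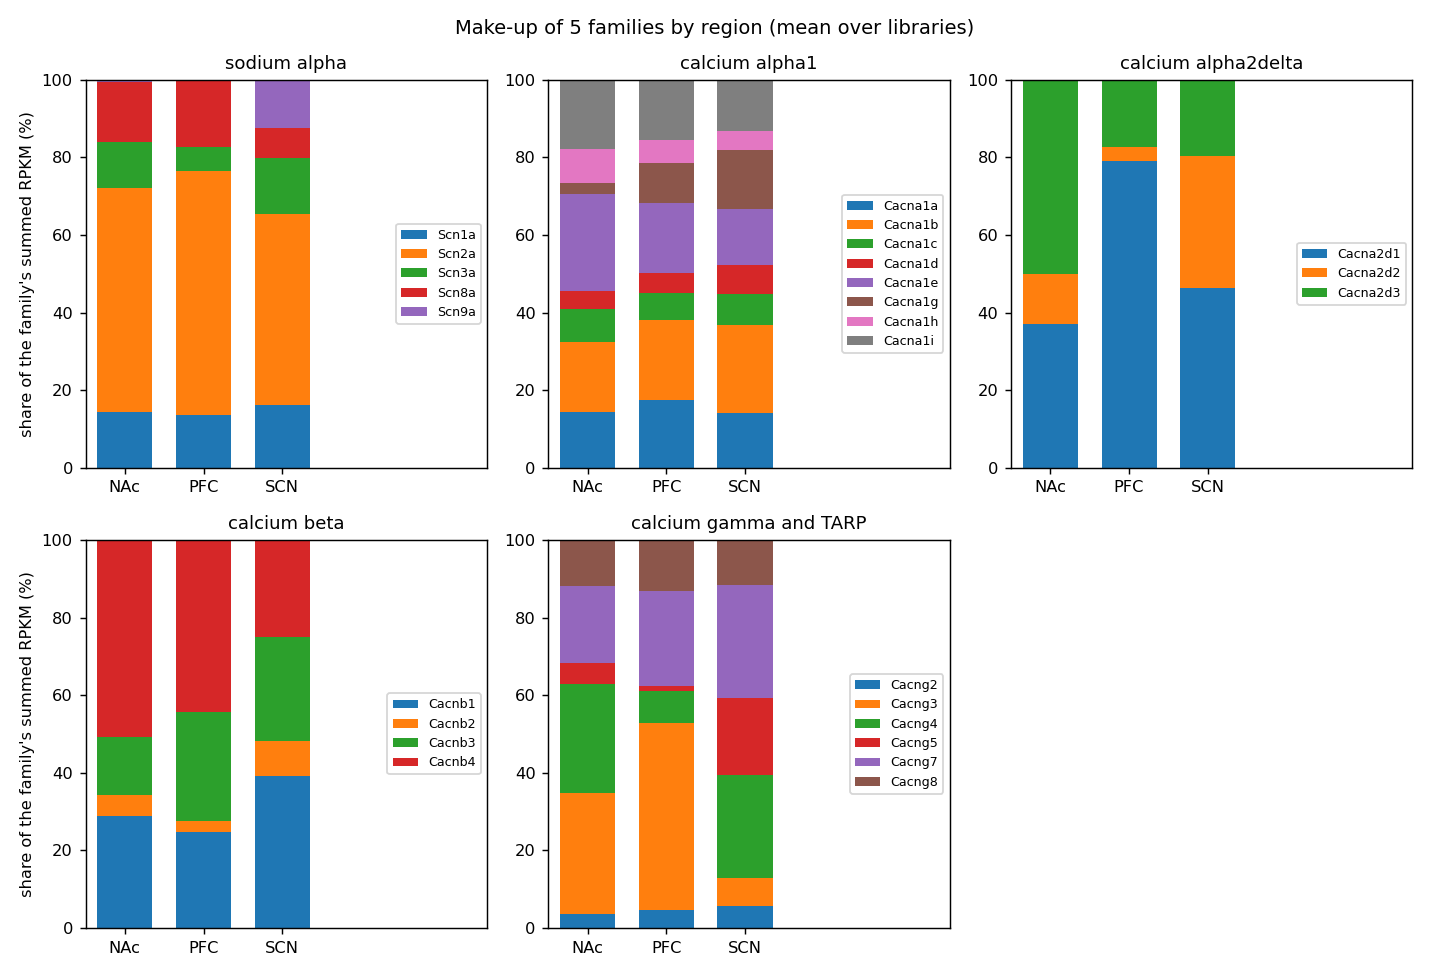
Mean share of each member in the summed RPKM of its family, in percent, for 5 families in the NAc (26 libraries), PFC (17) and SCN (19), with members that have a row in all regions. Cacna2d1 fills 79.1% of the alpha2delta bar in the PFC, and Cacnb4 50.9% of the beta bar in the NAc and 25.1% in the SCN.

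Of the 6 gamma genes, Cacng5 and Cacng4 were higher in the NAc than the PFC, Cacng3 and Cacng7 were lower, and Cacng2 and Cacng8 were not called. Cacng5, a TARP of the second type, reached 8.44 to 18.3 RPKM (median 11.2) in the SCN, 1.99 to 7.40 RPKM (median 4.79) in the NAc and 0.49 to 1.62 RPKM (median 1.23) in the PFC, with no overlap between any of the regions. The log2 fold changes were 1.41 ± 0.13 for the SCN against the NAc (edgeR adjusted p = 1.54e-15, 19 of 19 mice), 3.31 ± 0.16 for the SCN against the PFC (edgeR adjusted p = 3.6e-28, 12 of 12 mice) and 1.91 ± 0.16 for the NAc against the PFC (edgeR adjusted p = 2.15e-14, 17 of 17 mice). Cacng4, its neighbor 80047 bases away on chromosome 11, was highest in the NAc, at 11.9 to 37.6 RPKM (median 24.9), beside 3.95 to 9.64 RPKM (median 7.75) in the PFC (1.76 ± 0.12, edgeR adjusted p = 1.97e-17, no overlap) and a median of 15.8 RPKM in the SCN.

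Cacng3 was the gamma member farthest below both other regions in the SCN. It had 1.18 to 14.0 RPKM (median 3.83) in the SCN, 17.9 to 39.2 RPKM (median 26.3) in the NAc and 31.4 to 53.4 RPKM (median 43.9) in the PFC. Every SCN library was below every library of the other regions (-2.56 ± 0.16, edgeR adjusted p = 1.92e-23, and -3.24 ± 0.17, edgeR adjusted p = 4.68e-27), and the NAc was lower than the PFC in 17 of 17 mice (-0.68 ± 0.08, edgeR adjusted p = 1.99e-10). The highest SCN libraries for Cacng3 were J1199 and J1140, and without them its log2 fold changes were -2.83 and -3.51. Cacng7 was called lower in the NAc than the PFC (-0.34 ± 0.07, 17 of 17 mice) and was the most abundant gamma gene in the SCN (median 18.5 RPKM). Cacng2 (stargazin) had -0.32 ± 0.16 and Cacng8 -0.17 ± 0.09 in that comparison. Both were called lower among mice of the lower number range (-0.66 and -0.35) and without NAc libraries high in Slc17a7 (-0.45 and -0.27). The SCN libraries highest for Cacng2, J1159 and J1157, had 11.3 and 10.5 RPKM beside a median of 2.81 RPKM. Without them, Cacng2 was called lower in the SCN than the PFC (-0.53). Cacng3 took 48.4% ± 2.5 (SD, n = 17) of the summed gamma level in the PFC, 31.0% ± 4.4 (n = 26) in the NAc and 7.23% ± 3.98 (n = 19) in the SCN.

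Of the HCN channels, Hcn2 had the highest level in each region, and Hcn3 was the member called above both other regions in the SCN. Hcn3 reached 3.81 to 7.53 RPKM (median 5.03) in the SCN, 0.90 to 3.85 RPKM (median 1.81) in the NAc and 1.44 to 3.68 RPKM (median 2.85) in the PFC. All SCN libraries were above all PFC libraries (0.89 ± 0.14, edgeR adjusted p = 6.34e-08, 12 of 12 mice), and 1 NAc library, J1162, reached the lowest SCN library (1.49 ± 0.12, edgeR adjusted p = 4.81e-17, 19 of 19 mice). Hcn3 was lower in the NAc than the PFC in 16 of 17 mice (-0.60 ± 0.14, edgeR adjusted p = 0.000329), though not called in mice of the upper number range (-0.41).

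Hcn2 had medians of 51.1 RPKM in the NAc, 40.3 RPKM in the PFC and 45.2 RPKM in the SCN and was called higher in the NAc than the PFC (0.43 ± 0.07, 15 of 17 mice), though not among mice of the lower number range (0.20). Its SCN level did not reach the threshold against the NAc (-0.26 ± 0.09) and was called lower there with the mouse as a block (-0.29). Hcn4, the main subunit of the sinoatrial node, had a row in the SCN table alone, with 0.95 to 4.87 RPKM (median 1.76).

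Nalcn had a narrow range in every region, with 17.7 to 28.4 RPKM (median 21) in the NAc, 15.1 to 19.4 RPKM (median 16.6) in the PFC and 16.4 to 31.3 RPKM (median 24.9) in the SCN. It was called higher in the NAc than the PFC (0.30 ± 0.04, edgeR adjusted p = 1.25e-08, 17 of 17 mice) and in the SCN than in the PFC (0.56 ± 0.05, edgeR adjusted p = 2.24e-14, 11 of 12 mice). The SCN exceeded the NAc by just less than the threshold (0.26 ± 0.05, edgeR adjusted p = 2.77e-06, 17 of 19 mice). This difference was called without SCN J1199 and SCN J1140 (0.28) and among mice of the upper number range (0.29). The 4 listed genes of its channel complex differed in direction. Unc79 was higher in the NAc than the PFC (0.75) and lower in the SCN than in both (-1.07 and -0.32), Unc80 was lower in the SCN than in both (-0.68 and -0.90), and Fam155a was lower in the NAc than the PFC (-1.31) and higher in the SCN than in the NAc (1.27). Fam155b was not called between the NAc and PFC (0.16) and was higher in the SCN than in both (0.50 and 0.65), the direction in which Nalcn itself differed there.

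Among TRPC channels, which open downstream of phospholipase C, Trpc6 and Trpc7 had opposite patterns although both encode subunits gated by diacylglycerol. Trpc6 reached 34.8 to 99.5 RPKM (median 50.8) in the PFC, 2.56 to 31.8 RPKM (median 7.64) in the NAc and 2.34 to 10.7 RPKM (median 4.34) in the SCN. All PFC libraries were above all others. The NAc was 4.99-fold below the PFC (log2 fold change -2.32 ± 0.26, edgeR adjusted p = 1.12e-10, lower in 17 of 17 mice) and the SCN 10.6-fold below it (-3.40 ± 0.29, edgeR adjusted p = 5.06e-17, 12 of 12 mice). Against the NAc, the SCN was lower in 13 of 19 mice (-1.08 ± 0.25, edgeR adjusted p = 0.000107). This pooled value and that of the NAc against the PFC both span a gap in the NAc libraries. Of these, 13 lay at or below 5.39 RPKM and 13 at or above 9.89 RPKM. Among mice without a PFC library, all but J1017 had NAc libraries below the gap. In mouse J1019 the NAc and PFC libraries were at 31.8 and 34.8 RPKM. The 6 mice with a higher level in the SCN all had NAc libraries below that gap. The NAc library highest for Trpc6, J1019, had 38.3 CPM of Slc17a7 and ranked 22 of 26 in it. The part of this cortical marker in the Trpc6 levels was not tested. Trpc6 (ENSMUSG00000031997) lies on chr9:8544142-8680741.

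Trpc7 reached 0.38 to 0.87 RPKM (median 0.66) in the PFC, 1.52 to 5.0 RPKM (median 3.78) in the NAc and 2.64 to 6.96 RPKM (median 3.84) in the SCN. All NAc and SCN libraries lay above the PFC (2.41 ± 0.14, edgeR adjusted p = 1.25e-19, 17 of 17 mice, and 2.66 ± 0.15, edgeR adjusted p = 3.8e-25, 12 of 12 mice), and the NAc and SCN overlapped with no call (0.25 ± 0.12, edgeR adjusted p = 0.0519), although a call was made without SCN J1199 and SCN J1140 (0.29). Trpc5, with Trpc4 a subunit of a separate branch of the family, had 1.16 to 3.19 RPKM (median 1.97) in the NAc, below every library of the PFC (median 5.65 RPKM, -1.44 ± 0.12, edgeR adjusted p = 4.09e-15) and of the SCN (median 6.53 RPKM, 1.76 ± 0.12, edgeR adjusted p = 5.92e-21). Its call as higher in the SCN than in the PFC (0.31 ± 0.13, edgeR adjusted p = 0.0298, 8 of 12 mice) was lost with the mouse as a block (0.30, edgeR adjusted p = 0.0678) and in the same mice without it (0.33). This call was also lost without SCN J1199 and SCN J1140 (0.28) and without SCN J1157 and SCN J1159 (0.21).

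Trpc4 was lower in the NAc than the PFC in 16 of 17 mice (-0.68 ± 0.11, edgeR adjusted p = 2.6e-07) and had medians of 2.24 RPKM in the PFC and 2.22 RPKM in the SCN. Trpc1 was not called between the NAc and PFC (0.24 ± 0.08). Trpc1 reached 11.1 to 25.8 RPKM in the NAc, 11.9 to 16.1 RPKM in the PFC and 3.67 to 7.69 RPKM in the SCN, all below the others (-1.85 ± 0.09, edgeR adjusted p = 1.71e-29, and -1.61 ± 0.09, edgeR adjusted p = 3.32e-25). Its highest SCN library was J1199, and without J1199 and J1140 the highest was 5.25 RPKM. Of the summed level of the 6 TRPC subunits, Trpc6 took 66.0% ± 6.1 (SD, n = 17) in the PFC and Trpc1 42.4% ± 3.1 (n = 26) in the NAc, while Trpc5 took 27.4% ± 7.7 (n = 19) in the SCN. The non-channel gene Trpc4ap was the most abundant row of this group in the NAc and SCN, differed by less than 1.2-fold between the NAc and PFC (-0.18 ± 0.04), and overlaps the annotated gene Myh7b.

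**Figure D5:**
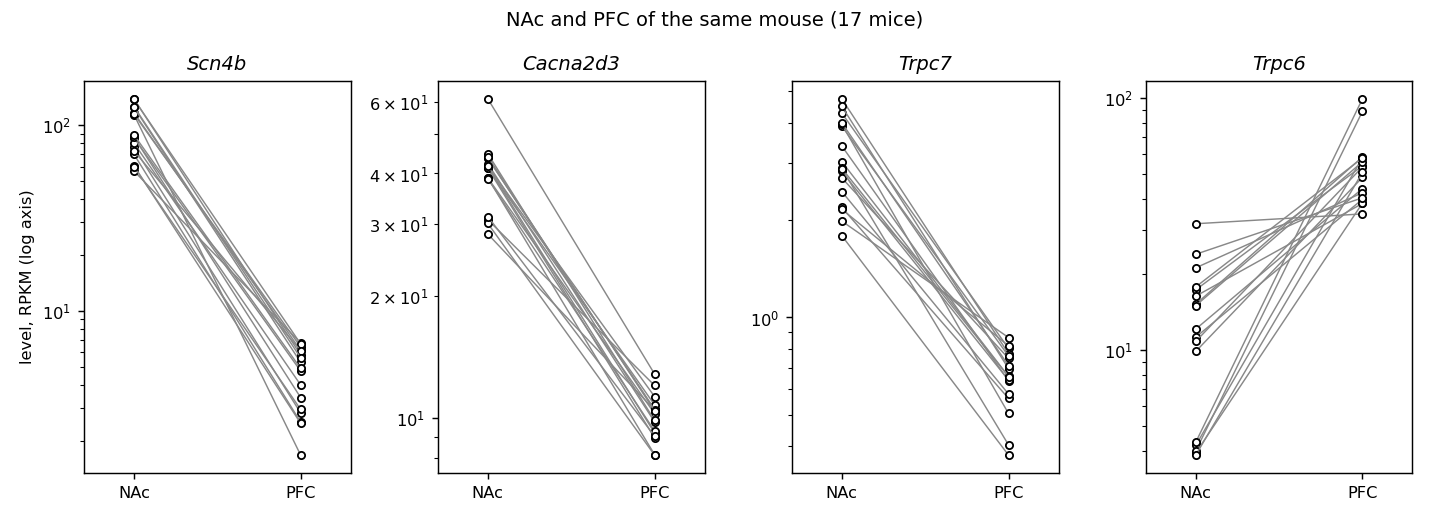
Levels of Scn4b, Cacna2d3, Trpc7 and Trpc6 in the NAc and PFC of the 17 mice with both regions, in RPKM on a log axis, with a line joining the libraries of a mouse. Scn4b, Cacna2d3 and Trpc7 fall from the NAc to the PFC in 17 of 17 mice and Trpc6 rises in 17 of 17, least in mouse J1019.

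Trpm3, opened by the steroid pregnenolone sulfate and by heat, followed the order SCN, NAc, PFC. It reached 3.83 to 6.65 RPKM (median 4.75) in the SCN, 1.89 to 4.01 RPKM (median 2.72) in the NAc and 0.69 to 1.55 RPKM (median 1.12) in the PFC. The NAc and SCN lay above the PFC without overlap (1.31 ± 0.09, edgeR adjusted p = 2.6e-17, and 2.09 ± 0.09, edgeR adjusted p = 4.62e-30), and the SCN was above the NAc in 19 of 19 mice (0.78 ± 0.08, edgeR adjusted p = 9.41e-14). Trpm7, a channel with a kinase domain that carries magnesium and was the most abundant TRPM in each region, had medians of 6.37, 4.96 and 5.42 RPKM in the NAc, PFC and SCN and was called higher in the NAc than the PFC (0.41 ± 0.08, 16 of 17 mice), though not among mice of the upper number range. Its call as lower in the SCN than in the NAc (-0.30 ± 0.07, 13 of 19 mice) was lost with the mouse as a block (-0.25). Trpm2, opened by ADP-ribose, had medians of 2.11, 2.07 and 1.76 RPKM.

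Trpv2 was the only TRPV gene with a row. It had 0.94 to 2.34 RPKM (median 1.54) in the NAc, below all PFC libraries, at 2.55 to 5.20 RPKM (median 4.23), and all SCN libraries, at 3.83 to 6.68 RPKM (median 5.23). The log2 fold change between the NAc and PFC was -1.35 ± 0.09 (edgeR adjusted p = 1.16e-17, lower in 17 of 17 mice) and that between the SCN and NAc 1.65 ± 0.08 (edgeR adjusted p = 4.06e-27, 19 of 19 mice). Against the PFC, the SCN was higher by a log2 fold change of 0.30 ± 0.09 (edgeR adjusted p = 0.00299, 10 of 12 mice), which fell under the threshold without SCN J1157 and SCN J1159 (0.26) and among mice of the lower number range (0.22).

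A list of 41 related genes, chosen by function, held genes whose products bind these channels, relatives of the TARPs and of the TRP channels, and genes of calcium entry. Between the NAc and PFC, 14 of the 30 with a row were higher in the NAc, 11 lower and 5 not called, beside 23.7% and 21.7% of all genes. Rem2, a small GTPase that inhibits calcium channels, was higher in the NAc at 12.8 to 26.2 RPKM beside 0.54 to 2.83 RPKM (log2 fold change 3.50 ± 0.13), and Fgf11, a member of the FGF homologous factors that bind sodium channels, was higher too (1.97 ± 0.08). Stac2, which binds L-type channels, was lower (-1.14 ± 0.23), as were the HCN partners Pex5l (TRIP8b, -1.03 ± 0.10) and Kctd3 (-0.53 ± 0.03).

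In the SCN, 18 of 27 of these genes were lower than in the NAc, 4 higher and 5 not called, beside 31.0% lower and 33.1% higher among all genes. Against the PFC, 17 were lower, 4 higher and 6 not called, beside 31.0% and 33.7%. Of the 8 sodium channel partners tested, 7 were lower in the SCN than in the NAc and 7 lower than in the PFC, with none higher in either. They include Fgf12 (-0.68 and -1.13), Fgf13 (-0.96 and -1.69) and Fgf14 (-0.83 and -0.29), the axon initial segment scaffolds Ank3 (-1.14 and -0.65) and Sptbn4 (-1.11 and -0.57), and the ubiquitin ligase Nedd4l (-2.29 and -1.71). Nfasc, also made by oligodendrocytes, was not called (0.16 and 0.33). The 4 TARP relatives tested were each lower in the SCN than in the NAc, among them Gsg1l (-2.0 ± 0.14), and the calcium entry channel Orai3 was higher in the SCN than in both (0.90 and 0.51).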

How the data were processed

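RNA was measured in 62 libraries from NAc (26), PFC (17) and SCN (19) punches of 26 mice. The authors prepared SmartSeq HT libraries, checked reads with FastQC 0.11.7, aligned them to GRCm38 with HISAT2, counted them per gene with HTSeq in union mode, filtered genes on low CPM and removed chromosome Y, and deposited raw counts in a table for the NAc and PFC (11569 rows) and a table for the SCN (12047 rows). Whether the counting used strand is not given in the sources used here. Symbols, positions and exon lengths came from GENCODE M21 (GRCm38), which holds 11545 and 12020 of the rows.

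Regions were compared with edgeR 4.0.16 (R 4.3.3), its quasi-likelihood test, TMM scaling, filterByExpr (which removed no row) and Benjamini-Hochberg adjustment over all rows, and calls needed an adjusted p under 0.05 and at least a 1.2-fold difference. The NAc and PFC fit used their table, and SCN fits used the 11133 rows in both tables and all 62 libraries. RPKM and marker CPM were scaled by TMM on 10688 nuclear protein-coding rows of both tables. RPKM is counts per kilobase of all annotated exons. SE is that of the log2 fold change. SD and n are over libraries. Tables and plots used Python 3.11.15, pandas 2.3.3 and matplotlib 3.10.9.

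Libraries with one mouse number come from one animal, which pairs 17 mice for the NAc and PFC, 19 for the SCN and NAc and 12 for the SCN and PFC. The correlations of their deviations from the region means had medians of -0.003, 0.001 and 0.099. They ranged from -0.469 to 0.262, -0.392 to 0.509 and -0.282 to 0.389, with 8, 3 and 6 mice over 0.1. The main fits had no block. The mouse as a block was an alternative, fitted to the mice with both regions, and the same mice were also fitted without a block. The others were DESeq2 1.42.0, its size factors, other filters, the lower (up to J1021) and upper range of mouse numbers as possible batches, nuclear protein-coding rows, fits without NAc libraries high in Slc17a7 (above 100 CPM over all rows of the NAc and PFC table, a scale on which values are lower than the marker CPM) and without SCN J1199 and SCN J1140. Fits without PFC J1160 and without SCN J1157 and SCN J1159 were added after the data were seen. P-values measure the spread between libraries of a region, each from 1 mouse, which holds differences between punches as well as between mice. Within a region, counts of any pair of libraries differed (lowest chi-square per gene 13.1). In counts drawn from these libraries with 200 genes changed 2-fold, edgeR recovered 198, 200 and 197 for NAc against PFC, SCN against NAc and SCN against PFC, with 4 false calls in each, tested over 11569, 11133 and 11133 genes. The drawn counts held no effect of mouse or punch and fewer changed genes than were called here. They therefore do not bear on calls near the 1.2-fold threshold.

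The members, gene lists and tests were chosen with earlier results of these data known. Results for some members are not reported here by name. Full statistics went to the called members with the largest changes between the NAc and PFC, up to 10 in each direction, to up to 6 members farthest above and 6 farthest below both other regions in the SCN, to members with a row in 1 table, and to the most abundant member of each family in each region. Behavior, CRD and sex were not analysed here.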

Additional observations from a re-analysis of the deposited data

How the results depend on the processing

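No count of called members moved by more than 1.5 times under any alternative run. Members higher in the NAc than the PFC numbered 15 to 17 (16 in the report) and members lower 12 to 19 (16); members higher in the SCN than in the NAc numbered 11 to 13 (11) and members lower 25 to 28 (25); members higher in the SCN than in the PFC numbered 9 to 11 (11) and members lower 22 to 26 (24). With the mouse as a replicate block, in the mice with both regions, the counts were 17 and 18, 11 and 25, and 10 and 24, and no call changed beyond those given in the report. The same mice without the block gave 17 and 18, 12 and 25, and 11 and 24. The 12 came from the upper range of mouse numbers and the 9 from the lower range and from leaving out SCN J1157 and SCN J1159. Without PFC J1160, the members numbered 16 higher and 17 lower in the NAc than the PFC. Of the log2 fold changes of single members, 465 of 495 kept direction and side of the threshold for the NAc against the PFC, 463 of 484 for the SCN against the NAc and 501 of 528 for the SCN against the PFC, and all 47 SCN medians moved by less than 1 SD without SCN J1199 and SCN J1140.

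Direction changed only where the report makes no call for that member in that comparison. Between the NAc and PFC, Trpm2 became -0.18 with the mouse as a block, -0.17 unblocked in the paired mice, -0.12 among mice of the lower number range, -0.16 without NAc libraries high in Slc17a7 and -0.015 without PFC J1160, and in the lower range Cacna1i became -0.15 and Cacnb1 -0.10, while in the upper range both were called higher (0.30 and 0.32). Between the SCN and NAc, Cacng2 became -0.34 in the lower range and -0.18 without SCN J1157 and SCN J1159, and Cacng7 -0.054 in the lower range. Between the SCN and PFC, Cacna1g became 0.083 with the block, 0.17 unblocked in the paired mice and 0.13 in the upper range, Cacng2 0.16 unblocked in the paired mice and 0.33 in the upper range, Trpc4 -0.044 with the block, -0.030 unblocked in the paired mice and -0.00052 with the libraries of the 2 regions alone, Cacna1d 0.0061 unblocked in the paired mice, and Hcn2 -0.084 in the lower range. In the opposite direction, Cacng2 was called lower in the SCN than the PFC in the lower range (-0.99) and without SCN J1157 and SCN J1159 (-0.53). No cause was tested.

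Limits are the unlabelled exposure and sex of the mice, the separate SCN table, and depth in the lowest genes, such as Scn9a in the PFC. The filter removed no row, so running without it says nothing of stability.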

Other observations

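The NAc libraries spread unevenly in Trpc6 and in the T-type calcium channel gene Cacna1g. For Trpc6, no NAc library lay between 5.39 and 9.89 RPKM, with 13 libraries below and 13 above, and for Cacna1g none lay between 1.15 and 1.90 RPKM, again with 13 on each side. The 13 libraries low in Trpc6 were the 13 high in Cacna1g. Trpc7 and Trpc4 divided nearly the same way. Trpc7 was at 3.66 to 4.995 RPKM in these 13 and at 1.52 to 3.39 RPKM in the others, except J1177 (3.96 RPKM). Trpc4 was at 1.52 to 2.04 RPKM in these 13, except J1011 (1.21 RPKM), and at 0.82 to 1.33 RPKM in the others. The main log2 fold changes of both genes include both sets. Other members were not searched for such a split. The 13 libraries low in Trpc6 also held more of the cortical marker Slc17a7, at 95.3 to 898 CPM (median 377). The other 13 held 12.3 to 236 CPM (median 50.05), with overlap. The part of Slc17a7 in the split was not tested. From low to high Trpc6, the former were J1011, J1140, J1158, J1178, J1162, J1015, J980, J1141, J1013, J1160, J1020, J1016 and J1199, with Trpc6 levels of 2.56, 3.76, 3.80, 3.84, 3.91, 3.91, 3.93, 3.99, 4.19, 4.31, 4.38, 5.16 and 5.39 RPKM. Their Cacna1g levels, in the same order, were 2.14, 4.15, 3.26, 2.77, 2.78, 1.91, 2.18, 2.75, 3.01, 3.63, 2.90, 1.90 and 4.61 RPKM. The latter were J1157, J1164, J1021, J1014, J1177, J1163, J1165, J1159, J1198, J1018, J1017, J965 and J1019, with Trpc6 levels of 9.89, 10.8, 11.3, 12.1, 15.0, 15.2, 16.4, 17.4, 17.8, 21.2, 23.2, 24.1 and 31.8 RPKM and Cacna1g levels of 0.85, 0.84, 0.68, 1.04, 0.42, 0.86, 1.07, 1.15, 0.48, 0.77, 1.10, 0.47 and 0.61 RPKM. The labels name no exposure, sex or punch position for these libraries, so the values are given without a test and without a grouping of the mice.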
